A study of Homo sapiens with 9 samples.

Results

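The 10 genes described here mark or regulate the epithelial-mesenchymal transition (EMT) and were followed through RNA-seq of A549 cells with and without an engineered *ALK* fusion. They are *CDH1*, *EPCAM*, *ESRP1*, *CDH2*, *VIM*, *ZEB1*, *ZEB2*, *SNAI1*, *SNAI2* and *TWIST1*, taken by symbol from a count file of 26364 gene rows, and all 10 have a row there. Epithelial cells hold to each other through E-cadherin at adherens junctions, and in EMT this adhesion is given up while N-cadherin and the intermediate filament protein vimentin become more abundant. The change is driven by zinc-finger factors (SNAI1, SNAI2, ZEB1, ZEB2) and the basic helix-loop-helix factor TWIST1, which repress *CDH1* and other epithelial genes, and ESRP1 keeps many transcripts in their epithelial splice form. In carcinoma lines the markers often appear in mixtures, so the level of each gene was read separately.

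A549 is an established human lung adenocarcinoma line. The 9 libraries, made from polyA RNA, fall into 4 groups: 2 of A549 without the fusion, 2 of A549 with the LOC388942-ALK (*LA*) fusion (genotype sgLOC388942; sgALK), 3 of *LA* cells that also received sgScr, a scrambled guide, and 2 of *LA* cells that also received sg*FOS*, guides against *FOS*. The sgScr and sg*FOS* groups therefore carry both fusion-making guides as well, and all 4 groups grew in RPMI medium with serum, with no drug named for any of them. By the study's methods the fusion was made by cutting with guides delivered by lentivirus, and edited cells were grown out from single cells, so that *LA* cells may stand for 1 clone. The labels do not say whether replicates were separate cultures, which *FOS* guide a library had or when libraries were made, and p-values below measure only the spread between these libraries. Differences in handling between sgScr libraries and those of A549 or *LA* cannot be told apart from the guide. The same holds for sg*FOS* against sgScr and the editing of *FOS*.

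Library totals ran from 14507228 to 20456341 counts. *FOS*, the AP-1 subunit that was targeted, lay at 9.14 and 10.5 counts per 1000000 counts of the library (CPM, scaled by TMM factors) in A549, at 336 and 91.6 in *LA*, at 198 to 205 in sgScr and at 68.6 and 74.3 in sg*FOS*. *ALK* had 0 counts in both A549 libraries and 2 and 15 in *LA*, but 0 also in 1 sg*FOS* library. The 7 epithelial markers checked, *CDH1* and *EPCAM* among them, were all at 1 CPM or more on average in each group. They summed to 13566 to 23981 CPM in A549, 7890 to 12792 in *LA*, 7035 to 7483 in sgScr and 8309 to 8547 in sg*FOS*. The keratins *KRT8*, *KRT18* and *KRT7* were lower in sgScr than in A549, *KRT8* at 2898 to 3139 CPM against 9991 and 6385. There *CDH1*, *EPCAM* and *CLDN4* were higher, and *KRT19* overlapped. Of 7 leukocyte markers, 3 reached 1 CPM on average in each group (*CD14*, *CD68* and *ITGAM*). The leukocyte list summed to 55.7 to 75.5 CPM in A549, 41.4 to 43.4 in *LA*, 41.7 to 44.3 in sgScr and 59.9 to 62.0 in sg*FOS*. The general leukocyte gene *PTPRC* and the T cell gene *CD3E* had 0 counts throughout. Replicates of A549 and *LA* were far apart, the chi-square between them reaching 157 and 73.7 per degree of freedom over 11900 genes, against 1.81 to 2.92 for pairs within sgScr or sg*FOS*. In bulk RNA, fewer cells of a type and less RNA per cell cannot be told apart.

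*CDH1*, on chromosome 16 (68771195-68869440, plus strand, GRCh37, as all gene positions here), encodes E-cadherin, the calcium-dependent adhesion molecule of epithelial adherens junctions. It stood at 18.0 and 21.9 CPM in A549 and at 99.2 and 100.2 CPM in *LA*. The sgScr libraries held 71.5, 69.9 and 69.5 CPM and the sg*FOS* libraries 71.0 and 71.1 CPM. A549 was thus lowest and *LA* highest with no overlap, while the sg*FOS* values lay inside the sgScr range. By edgeR's quasi-likelihood test *CDH1* rose in *LA* against A549 with a log2 fold change of 2.28 (SE 0.41, 95% interval 1.43 to 3.13, adjusted p = 0.00123). It was lower in sgScr than in *LA* by a log2 value of -0.55 (interval -0.73 to -0.36, adjusted p = 0.00799) and still above A549 by 1.79 (interval 1.39 to 2.19, adjusted p = 0.00426). Between sg*FOS* and sgScr the log2 difference was 0.028, with an interval of -0.070 to 0.13 and an adjusted p of 0.735.

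*CDH2* (chromosome 18, 25512843-25757910, minus strand) encodes N-cadherin, typical of mesenchymal and neural cells. Its level was 11.6 and 14.3 CPM in A549 and 80.6 and 60.0 CPM in *LA*, whereas sgScr had 5.62, 5.50 and 6.44 CPM. The sg*FOS* libraries had 9.12 and 8.01 CPM. No group overlapped another, and the order from high to low was *LA*, A549, sg*FOS* and sgScr. *CDH2* rose in *LA* against A549 by 2.41 on the log2 scale (SE 0.43, interval 1.52 to 3.30, adjusted p = 0.00116). In sgScr it fell by 3.63 against *LA* (SE 0.16, adjusted p = 0.000352) and by 1.17 against A549 (SE 0.19, adjusted p = 0.00921). It was the one member that was higher in sg*FOS* than in sgScr by the test, with a log2 fold change of 0.57 (SE 0.15, interval 0.27 to 0.87, adjusted p = 0.00391), and this call ended without sg*FOS* replicate 1 (0.47, adjusted p = 0.103).

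**Figure D1:**
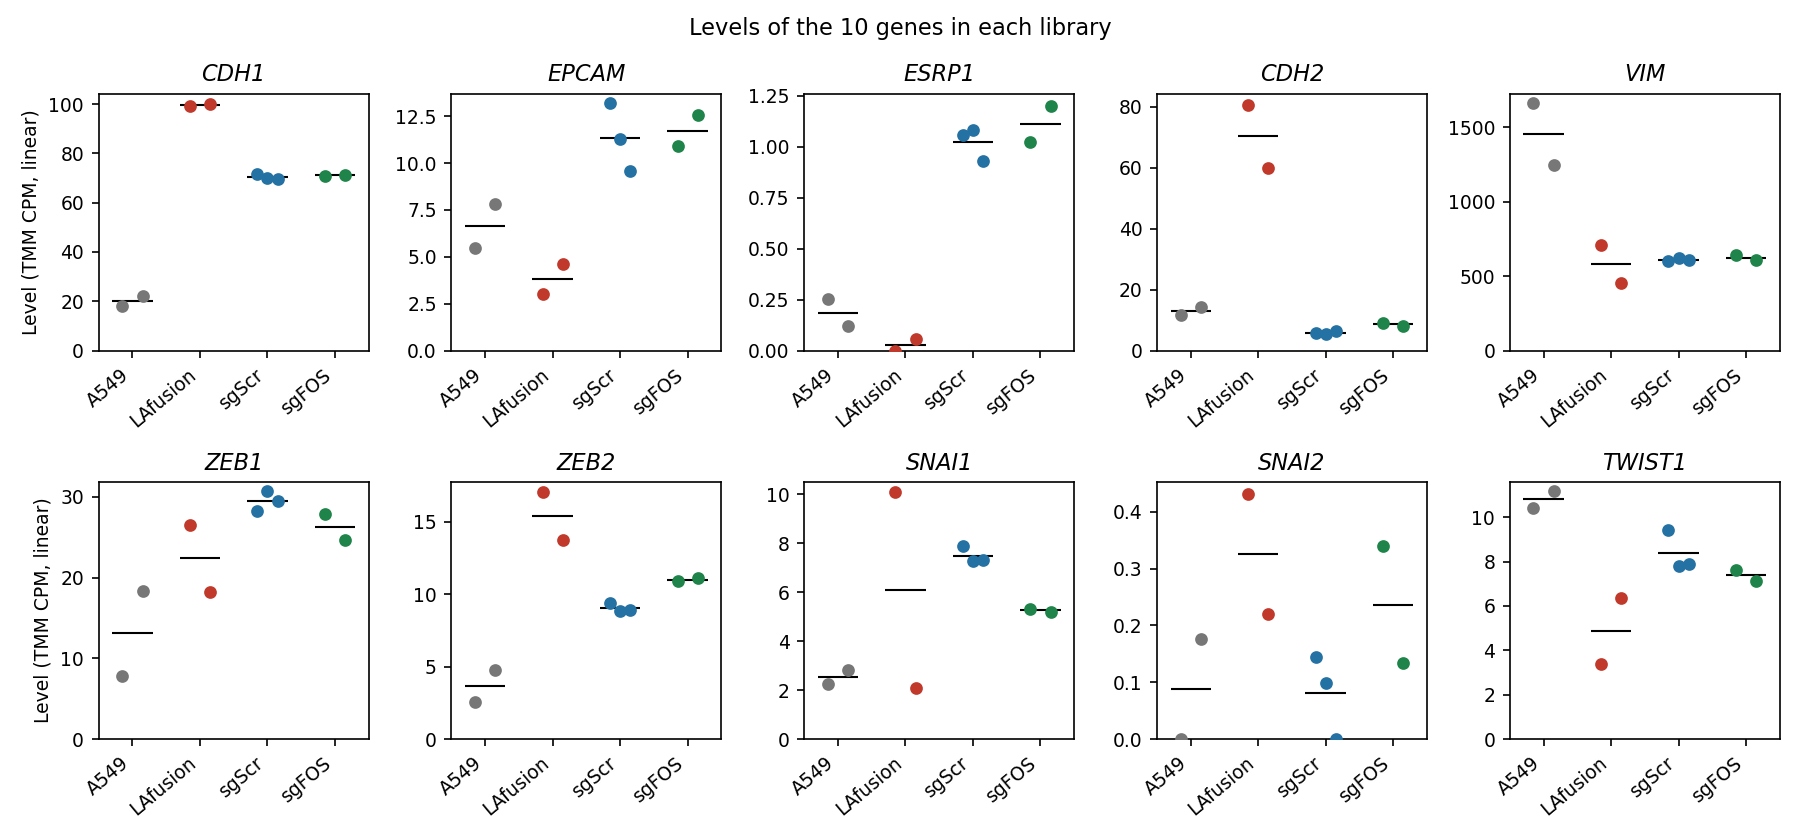
Level of each of the 10 genes in the 9 libraries, as TMM-scaled CPM on linear axes that start at 0 and differ between panels. Points are libraries and bars are group means. *CDH1* and *CDH2* are both highest in *LA*, *CDH2* lies at 5.50 to 6.44 CPM in sgScr, and the 2 *LA* libraries of *SNAI1* lie far apart at 10.1 and 2.10 CPM.

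Since both cadherins were high in *LA*, their ratio was taken in each library after dividing by transcript length. The *CDH1* to *CDH2* ratio was 1.30 and 1.28 in A549 and 1.03 and 1.39 in *LA*, so the A549 values lay within the *LA* range. In sgScr it was 10.6, 10.6 and 9.02, and in sg*FOS* 6.50 and 7.42. The last 2 groups overlapped neither each other nor A549 or *LA*. Per kilobase, mean *CDH1* went from 4.15 CPM in A549 to 20.7 in *LA*, 14.6 in sgScr and 14.8 in sg*FOS*, and mean *CDH2* from 3.22 to 17.5, 1.46 and 2.13.

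**Figure D2:**
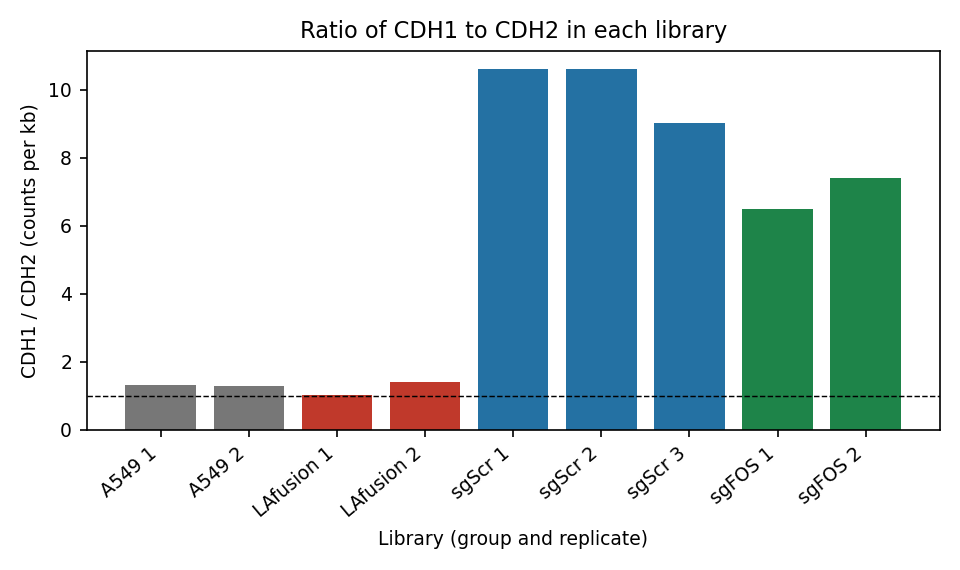
Ratio of *CDH1* to *CDH2* counts per kilobase of transcript in each library, 1 bar per library on a linear axis from 0, with a dashed line at equal levels. The 4 A549 and *LA* bars lie between 1.03 and 1.39, and the 5 sgScr and sg*FOS* bars between 6.50 and 10.6.

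*EPCAM* (chromosome 2, 47572297-47614740, plus strand) encodes a cell-surface adhesion protein used to recognise carcinoma cells. It had 5.47 and 7.84 CPM in A549, 3.02 and 4.64 in *LA*, 13.2, 11.3 and 9.57 in sgScr and 10.9 and 12.5 in sg*FOS*. Unlike *CDH1*, it was therefore lowest in *LA*, although the log2 value of -0.84 against A549 did not pass (interval -1.97 to 0.30, adjusted p = 0.292). It rose in sgScr against *LA* by 1.52 (SE 0.26, interval 0.89 to 2.15, adjusted p = 0.0131), and against A549 the value was 0.74 (interval 0.14 to 1.35, adjusted p = 0.0539). The sg*FOS* and sgScr ranges overlapped, with a log2 difference of 0.051 (interval -0.21 to 0.31, adjusted p = 0.823).

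*ESRP1* (chromosome 8, 95653302-95719694, plus strand), the epithelial splicing regulator, was barely detected. A549 had 4 and 2 counts and *LA* 0 and 1, whereas sgScr had 22, 22 and 16 and sg*FOS* 15 and 18. It did not pass the filter on low counts for *LA* against A549, where the ratio of pooled CPM was 0.159 with an exact 95% counting interval of 0.00347 to 1.31. In sgScr the 60 counts against 1 in *LA* gave a ratio of 35.3 (interval 6.09 to 1416), and against 6 counts in A549 a ratio of 5.63 (2.44 to 15.9). These intervals cover counting error only. The gene entered both of those fits only through sgScr, the group where it was high, so no test of it is read there. Even at its highest it had a mean of 0.295 CPM per kb, in sg*FOS*, where the ratio to sgScr was 1.08 (0.686 to 1.68).

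*VIM* (chromosome 10, 17270240-17279592, plus strand), which encodes vimentin, was by far the most abundant of the 10 genes per kilobase, at the 99.2 to 99.5 percentile of 23790 genes. It had 1666 and 1245 CPM in A549 and 709 and 453 CPM in *LA*. In sgScr the values were 598, 622 and 607 CPM and in sg*FOS* 639 and 606 CPM. A549 stood above every other library. *VIM* fell by 1.36 on the log2 scale in *LA* against A549 (SE 0.44, interval -2.27 to -0.45, adjusted p = 0.0327) and by 1.28 in sgScr against A549 (SE 0.17, adjusted p = 0.00623). The first call ended without A549 replicate 1 (-1.17, adjusted p = 0.0722), without *LA* replicate 1 (-1.74, adjusted p = 0.205) or without *LA* replicate 2 (-1.06, adjusted p = 0.503), and when length and GC content were corrected for (-0.95, adjusted p = 0.0746). Between sg*FOS* and sgScr the difference was 0.044 (interval -0.026 to 0.11, adjusted p = 0.397). An antisense gene, *VIM-AS1*, overlaps its exons with 12 to 44 counts, and the strand setting of the counting is unknown.

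*ZEB2* (chromosome 2, 145121931-145278624, minus strand) encodes one of the paired zinc-finger and homeodomain repressors of *CDH1*. Levels were 2.58 and 4.78 CPM in A549, 17.0 and 13.7 in *LA*, 9.36, 8.84 and 8.87 in sgScr and 10.9 and 11.1 in sg*FOS*. The 4 ranges did not overlap. *ZEB2* rose in *LA* against A549 by a log2 value of 2.02 (SE 0.51, interval 0.96 to 3.08, adjusted p = 0.00856), together with *CDH1*. The call ended without A549 replicate 1 (1.62, adjusted p = 0.0525) or *LA* replicate 1 (1.84, adjusted p = 0.142) or *LA* replicate 2 (2.18, adjusted p = 0.0725). When length and GC content were corrected for, the value was 1.12 (adjusted p = 0.0634). In sgScr it was lower than in *LA* (-0.81, interval -1.16 to -0.46, adjusted p = 0.0149) and higher than in A549 (1.27, interval 0.55 to 1.99, adjusted p = 0.0203), the latter being 0.35 after that correction (adjusted p = 0.125). The sg*FOS* value of 0.30 against sgScr had an interval of 0.045 to 0.55 and an adjusted p of 0.0827, although both libraries lay above all 3 of sgScr.

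Its paralog *ZEB1* (chromosome 10, 31607424-31818742, plus strand) had 7.86 and 18.4 CPM in A549 and 26.5 and 18.3 CPM in *LA*, so these groups overlapped. It had 28.2, 30.7 and 29.5 CPM in sgScr and 27.9 and 24.6 in sg*FOS*. The value in *LA* against A549 was 0.73 (interval -0.24 to 1.70, adjusted p = 0.283), or 1.39 without A549 replicate 2 (adjusted p = 0.0317). *ZEB1* was higher in sgScr than in A549 by 1.14 (interval 0.27 to 2.01, adjusted p = 0.0462), and by 0.51 after the length and GC correction (adjusted p = 0.0501). Its exons overlap *ZEB1-AS1*, which had 27 to 98 counts. For sg*FOS* against sgScr the value was -0.15 (interval -0.31 to 0.0022, adjusted p = 0.154).

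The sequences upstream of 3 genes are shown because *CDH2* and *ZEB2* rose together in *LA* and *ZEB1* belongs to the same repressor pair as *ZEB2*. They are the 250 bases before the gene start from RefSeq (GRCh38.p14, 5′ to 3′ on the gene's strand), and of the 10 genes 4 were matched in that table (*CDH2*, *VIM*, *ZEB1* and *ZEB2*). The windows are chr18:28177131-28177380 (minus strand) for *CDH2*, chr10:31318167-31318416 (plus strand) for *ZEB1* and chr2:144520120-144520369 (minus strand) for *ZEB2*. Capitals mark CACCTG or its reverse complement CAGGTG, the E-box type that SNAI and ZEB factors bind, and the AP-1 sequence TGACTCA (reverse complement TGAGTCA) was searched too.
CDH2: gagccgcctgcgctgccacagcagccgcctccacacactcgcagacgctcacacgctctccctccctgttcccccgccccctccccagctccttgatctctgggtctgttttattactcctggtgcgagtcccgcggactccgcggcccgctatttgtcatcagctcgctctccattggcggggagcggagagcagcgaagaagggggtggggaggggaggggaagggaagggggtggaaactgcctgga
ZEB1: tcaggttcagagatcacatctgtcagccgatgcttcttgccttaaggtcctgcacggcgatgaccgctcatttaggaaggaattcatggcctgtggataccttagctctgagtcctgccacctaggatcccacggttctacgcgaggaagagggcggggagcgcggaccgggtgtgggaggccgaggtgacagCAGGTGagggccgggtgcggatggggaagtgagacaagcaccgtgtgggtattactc
ZEB2: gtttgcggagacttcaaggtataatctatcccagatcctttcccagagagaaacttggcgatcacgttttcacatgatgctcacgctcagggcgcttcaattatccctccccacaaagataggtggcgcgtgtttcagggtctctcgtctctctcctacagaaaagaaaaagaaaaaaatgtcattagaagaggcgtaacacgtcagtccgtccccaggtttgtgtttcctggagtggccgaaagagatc
The single match in the 4 windows, *VIM* included, was CAGGTG at -57 to -52 from the *ZEB1* start. Among 35116 RefSeq promoter windows of this length, 6143 (17.5%) hold this E-box and 1476 (4.2%) hold the AP-1 sequence. A match describes these letters and is not a bound site.

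*SNAI1* (chromosome 20, 48599517-48605423, plus strand) encodes SNAIL, which represses *CDH1* directly. It had 2.26 and 2.83 CPM in A549, but 10.1 and 2.10 CPM in the 2 *LA* libraries, so that 1 *LA* library was the highest of all 9 and the other the lowest. *FOS* was higher in the same *LA* library, and its part in the *SNAI1* values was not tested. In sgScr it held 7.87, 7.27 and 7.31 CPM and in sg*FOS* 5.31 and 5.21. The log2 value in *LA* against A549 was 1.22 (interval -0.13 to 2.58, adjusted p = 0.191), and without *LA* replicate 1 it was -0.34 (adjusted p = 0.899). *SNAI1* was higher in sgScr than in A549 by 1.53 (SE 0.22, adjusted p = 0.00696). It was lower in sg*FOS* than in sgScr by a log2 value of -0.50 (SE 0.15, interval -0.81 to -0.18, adjusted p = 0.0164), with both libraries below all 3 of sgScr. This call ended without sgScr replicate 1 (-0.46, adjusted p = 0.0513), without sg*FOS* replicate 1 (-0.51, adjusted p = 0.0898), without sg*FOS* replicate 2 (-0.49, adjusted p = 0.105) and with DESeq2 (-0.50, adjusted p = 0.111). Against *LA*, sgScr differed by 0.27 (interval -1.09 to 1.64, adjusted p = 0.749).

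*TWIST1* (chromosome 7, 19060614-19157259, minus strand) had 10.4 and 11.2 CPM in A549, 3.39 and 6.35 in *LA*, 9.41, 7.81 and 7.89 in sgScr and 7.63 and 7.14 in sg*FOS*. A549 was highest and *LA* lowest without overlap, but no comparison passed. The values were -1.19 in *LA* against A549 (interval -2.25 to -0.13, adjusted p = 0.102), 0.73 in sgScr against *LA* (adjusted p = 0.118), -0.39 in sgScr against A549 (adjusted p = 0.123, or 0.24 with length and GC content corrected for) and -0.17 in sg*FOS* against sgScr (interval -0.46 to 0.12, adjusted p = 0.429). *SNAI2*, which encodes SLUG (chromosome 8, 49830157-49834299, minus strand), had 0 to 7 counts in any library and passed no filter. It had 3 counts in all in A549, 11 in *LA*, 5 in sgScr and 7 in sg*FOS*. The ratio for *LA* against A549 was 3.51 with a counting interval of 0.927 to 19.6.

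Read by comparison, the first question was what the fusion cells express relative to A549. Of the 8 members tested there, *CDH1*, *CDH2* and *ZEB2* rose and *VIM* fell. An epithelial and a mesenchymal cadherin thus rose side by side while the main mesenchymal filament gene fell. Over all 14425 genes tested, 9.57% were called higher and 9.94% lower. *CDH1* and *CDH2* were called in all 14 alternatives tried, with log2 values of 1.84 to 2.56 and 2.03 to 2.68. Across 13969 genes with a known length, log2 fold changes of this comparison went with transcript length at a Spearman's rho of 0.58, and *ZEB2* has the longest transcript of the members, 9265 bases, as against 2154 for *VIM*. Once both length and GC content were corrected for, *CDH1* was at 1.84 (adjusted p = 0.00318) and *CDH2* at 2.03 (adjusted p = 0.00317).

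**Figure D3:**
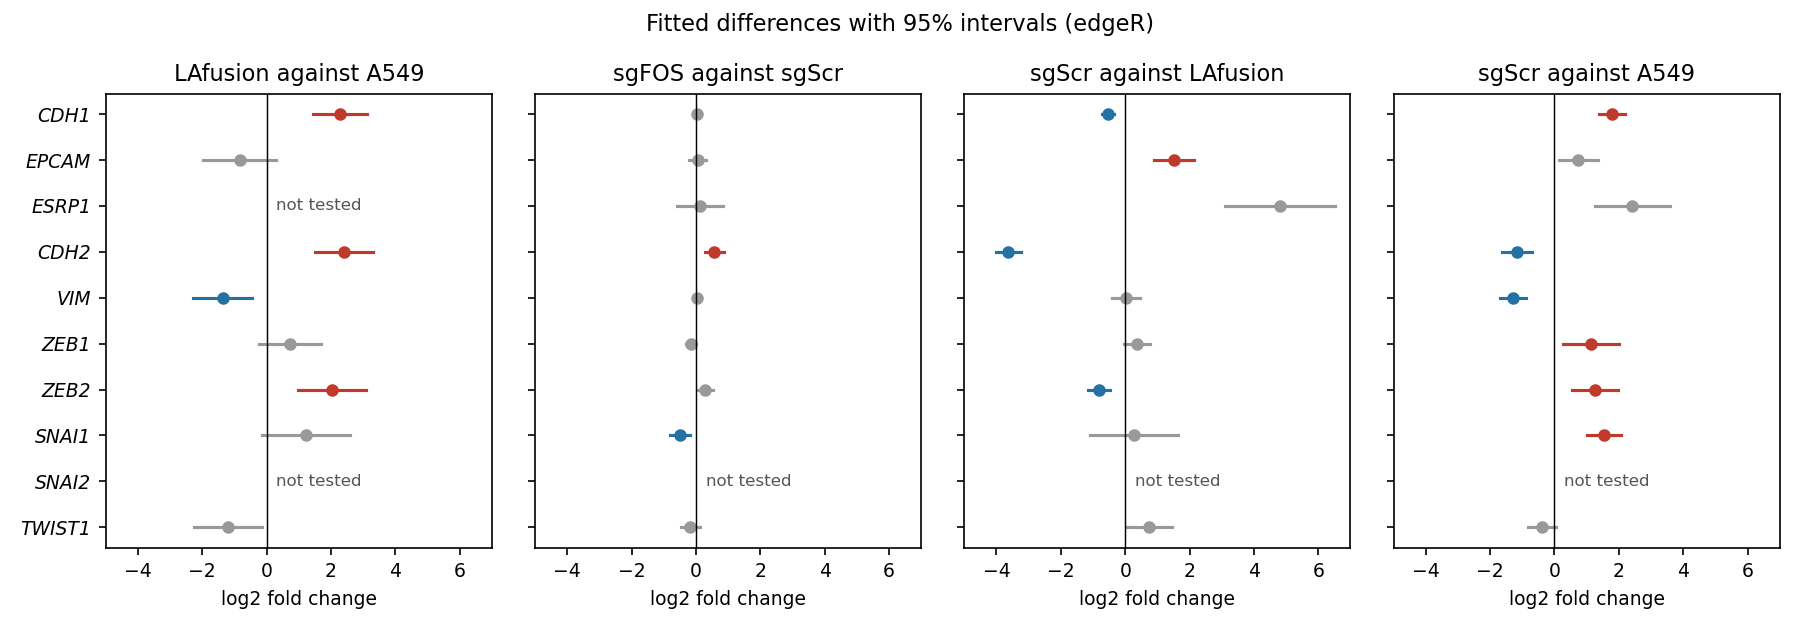
Fitted log2 fold change of each gene in the 4 comparisons (points) with 95% intervals from edgeR (bars). Red marks genes called higher, blue genes called lower and grey genes not called at an adjusted p of 0.05. *CDH1* and *CDH2* are at 2.28 and 2.41 in *LA* against A549, and *CDH2* is at -3.63 in sgScr against *LA*. *ESRP1* is drawn in grey against *LA* and A549, since it entered those fits only through sgScr.

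The second comparison set sg*FOS* against sgScr, both within *LA* cells. *CDH2* rose and *SNAI1* fell among 9 members tested, where 12.2% of 14196 genes were called higher and 10.5% lower. The other members tested were not called, their log2 values lying between -0.17 and 0.30. Lack of a call does not show that their levels were alike. For *CDH1* and *VIM* the intervals stayed within 0.13 of 0. With all 9 libraries in 1 fit, which takes in the wide spread of A549 and *LA*, no gene was called in this comparison by edgeR (444 at an unadjusted p under 0.05), and DESeq2 on the 5 libraries called 993 higher and 832 lower.

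The remaining comparisons set sgScr against *LA* and against A549, and share libraries with each other and with the first. In sgScr against *LA*, *EPCAM* rose and *CDH1*, *CDH2* and *ZEB2* fell, beside *ESRP1*, which entered the fit only through sgScr, with 10.6% of 14521 genes called higher and 12.3% lower. *CDH2* was called in all 14 alternatives, at log2 values of -3.82 to -3.40. In sgScr against A549, *CDH1*, *ZEB1*, *ZEB2* and *SNAI1* rose and *CDH2* and *VIM* fell, again beside *ESRP1*, with 19.8% of 14482 genes called higher and 21.7% lower. Leaving out any 1 of the 3 sgScr libraries ended every one of these calls except that of *CDH2* against *LA*. *CDH1* against A549, for instance, then had an adjusted p above 0.05 and at most 0.0541, at log2 values of 1.78 to 1.80. The members not called against *LA* depended on which *LA* library was used. *VIM* at 0.030 (adjusted p = 0.916) became 0.39 without *LA* replicate 1 (adjusted p = 1.61e-09) and -0.25 without *LA* replicate 2 (adjusted p = 7.16e-06), and *SNAI1* became 1.80 (adjusted p = 4.72e-08) and -0.46 (adjusted p = 0.0198). *ZEB1* at 0.36 (adjusted p = 0.161) became 0.65 without *LA* replicate 1 (adjusted p = 7.81e-07), and *TWIST1* 1.28 without *LA* replicate 2 (adjusted p = 5.97e-06). Against A549, *EPCAM* was 0.53 without A549 replicate 1 (adjusted p = 0.0078) and 1.02 without A549 replicate 2 (adjusted p = 1.68e-05), and *TWIST1* was -0.43 (adjusted p = 0.0179) and -0.36 (adjusted p = 0.0493). In these fits the lone library is assumed to vary as little as sgScr. *CDH2* was thus higher in *LA* and lower in sgScr than in A549, although both groups carry the fusion guides.

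Other genes of the same pathway were read from 9 lists holding 153 genes, chosen with earlier results of these data known. In *LA* against A549, where the median log2 fold change of all genes was 0.044, 9.57% were called higher and 9.94% lower, and the junction lists read as follows. Of 10 genes tested in the catenin and nectin list, 2 rose and 0 fell (median 0.54). They were *MLLT4* at 1.71, which encodes afadin, and *VCL* at 1.27, which encodes vinculin. Both are adherens junction genes other than catenins and nectins, and no catenin or nectin itself was called. In the counts below, catenins and nectins include these 2 genes. Of 9 desmosome genes *PKP2* (1.92) and *DSP* (1.27), which link the junction to keratin, rose and none fell (median 0.43). Of 23 tight junction genes *MARVELD2* (1.94) and *CLDN2* (1.37) rose and *CLDN3* (-2.03) fell (median 0.64). Of 8 other cadherins tested *CDH19* (3.61) and *CDH17* (1.20) were called higher (median 0.93). That median takes in genes near the floor, such as *CDH8* at a mean of 5.5 counts and *CDH16* at 7.5, and is not read as a result. With a mean of at least 50 counts required, 5 were tested and the median was 0.56. *CDH19* had 7 and 14 counts in A549 and 111 and 168 in *LA*. It passed the filter through *LA*, the group where it was high, so its call is not read as a test. *CDH19* went from 0.440 and 0.825 CPM in A549 to 6.84 and 9.27 in *LA*, and lay at 0.812 to 0.933 in sgScr. That it was highest in *LA* follows from how it entered and supports nothing about *CDH2*. These counts and medians were smaller with length and GC content corrected for. No gene of the catenin and nectin list was called (median 0.31), and 1 desmosome gene rose (0.041). In the tight junction list 1 gene rose and none fell (0.27), and 1 other cadherin was called higher (0.52). The cadherin values there cover 8 genes, those near the floor among them, and are not read as a result either. Without *LA* replicate 1 or *LA* replicate 2 no catenin or nectin was called and no tight junction gene rose, and the desmosome median was -0.11 without *LA* replicate 2. Without A549 replicate 1 no tight junction or desmosome gene was called, and without A549 replicate 2 there were 7 tight junction genes and 4 catenins and nectins that rose.

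Among 12 epithelial regulators and genes tested in that comparison, *EHF*, an epithelial ETS factor, rose by 3.40 on the log2 scale and *AP1M2*, an epithelial adaptor subunit, fell by 1.64 (median 0.019). Of 12 other EMT transcription factors 1 rose, *SOX9* at 1.82 (median 0.46), and of 12 corepressors of SNAIL and ZEB 1 rose, *RCOR1* at 1.17 (median -0.19). *MBNL2* (1.37) was the 1 of 8 splicing regulators that rose (median 0.64). With length and GC content corrected for, no splicing regulator was called (median 0.079), and 0 corepressors rose and 2 fell (-0.30). Under that correction 1 epithelial gene rose and 0 fell (0.031), and 1 other EMT transcription factor rose (0.22). Among 16 other mesenchymal markers 3 rose, *FBN1* (2.76) and *SPARC* (1.56) among them, and *S100A4* (-2.12) fell, at a median of 0.44. The *S100A4* call ended with length and GC content corrected for (2 higher and 0 lower, median -0.0086) and without A549 replicate 1, *LA* replicate 1 or *LA* replicate 2, which left 2, 1 and 1 higher. No gene of the other transcription factor, corepressor and splicing lists was called without *LA* replicate 2 or without A549 replicate 1, and no epithelial gene was lower without either of these libraries or *LA* replicate 1.

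In sg*FOS* against sgScr most of the other mesenchymal markers were called. Of 16 tested 12 were called higher and 0 lower, beside 12.2% of all genes called higher, and the median was 0.45 against -0.0015 over all genes. The called changes were of unequal size, down to 0.10 for *AXL*. *LOX* (-0.65, adjusted p = 0.140) and *ENG* (-0.68, adjusted p = 0.0894) went the other way without a call. *ACTA2*, smooth muscle actin, went from 4.03, 4.91 and 4.47 CPM in sgScr to 7.97 and 9.28 in sg*FOS* (0.96, adjusted p = 1.10e-05). *TNC*, the matrix protein tenascin C, had 2.64, 2.06 and 1.97 CPM in sgScr and 4.08 and 4.67 in sg*FOS* (0.98, adjusted p = 0.000825). Both genes were named for their large change, so the lack of overlap between the groups is no separate support. *CDH2* moved in the same direction, whereas *VIM* at 0.044 was not called. Counted after the data were seen, 9 to 11 of these 16 were higher when any 1 library was left out, 10 by DESeq2, and 0 with all 9 libraries in 1 fit.

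The junction lists are given for the same comparison, beside 12.2% of all genes called higher and 10.5% lower. Their counts are not read as a shortage or an excess. Of 25 tight junction genes *CLDN4* (0.92), *CLDN2* (0.49) and *F11R* (0.21) rose and *TJP3* (-0.41) fell (median 0.11). Without sgScr replicate 3, 6 tight junction genes and 4 genes of the catenin and nectin list were higher. *CLDN4* had 4.18, 3.59 and 3.94 CPM in sgScr and 7.35 and 7.34 in sg*FOS*. In the catenin and nectin list of 10 genes *VCL* (0.24) and *JUP* (0.10) rose and *MLLT4* (-0.16) fell (median 0.065). Of 9 desmosome genes 1 fell, *PKP4* at -0.13 (median 0.066). Of 7 other cadherins 1 was called, lower (median -0.0075), and with a mean of 8.4 counts that call is not read as a result. *EHF* (0.54), *LSR* (0.28) and *SPINT2* (0.24) rose and *ERBB3* (-0.66) and *AP1M2* (-0.30) fell among 13 epithelial genes (median -0.067). Of 11 EMT transcription factors *SOX4* (0.47) and *HMGA2* (0.21) rose and *TCF12* (-0.19) fell (median 0.040). *LOXL2* (0.20) rose and *SIN3A* (-0.14) and *SUZ12* (-0.12) fell among 12 corepressors (median -0.090), and *MBNL1* (-0.17) fell among 8 splicing regulators (median -0.029).

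**Figure D4:**
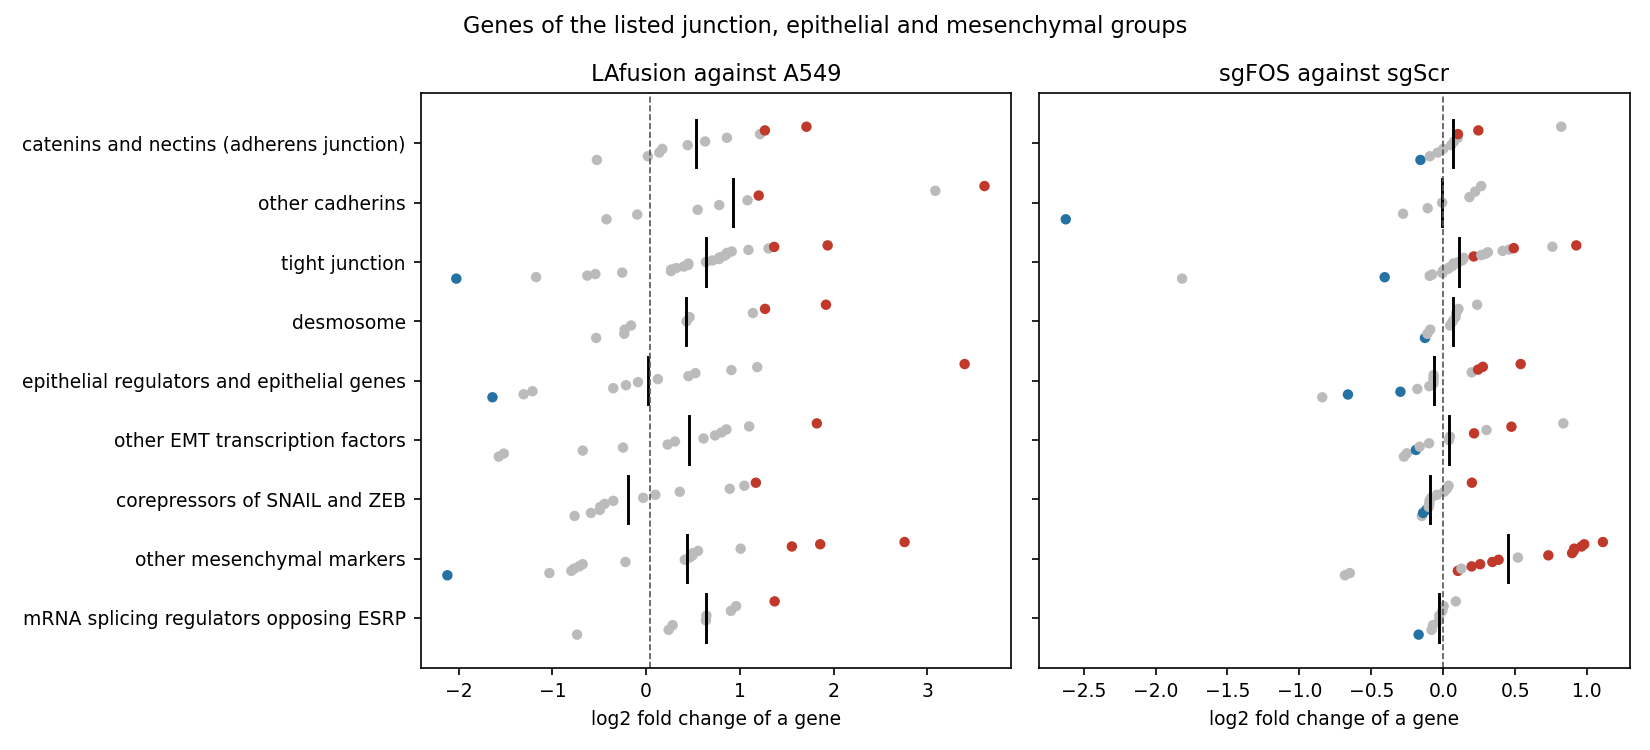
Log2 fold change of each tested gene of the 9 lists in *LA* against A549 and in sg*FOS* against sgScr (1 point per gene, red called higher, blue called lower, grey not called), with the list median as a black bar and the median of all genes as a dashed line. In sg*FOS* against sgScr 12 of 16 mesenchymal markers are red and none is blue.

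In sgScr against *LA*, 4 of 10 other cadherins were called lower and none higher, beside 12.3% of all genes called lower. Their median was -1.18 against -0.016 over all genes. The count of lower cadherins was 1 without any 1 sgScr library. Of the 4, 1 averaged only 12.2 counts and its call is not read as a result. The 10 take in other genes near the floor, such as *CDH8* at a mean of 7.0 counts, so the list's count and median are not read as a result either. With a mean of at least 50 counts required, 3 of 5 were lower (median -1.18). *CDH19* passed that filter too through its *LA* counts. The other lists had 0 to 3 genes called in a direction. In sgScr against A549, 12 of 24 tight junction genes rose and 4 fell (median 0.76), and 4 of 9 desmosome genes rose and 1 fell (median 0.81). Of 10 genes in the catenin and nectin list 4 rose and 1 fell (median 0.67). Over all genes 19.8% were called higher and 21.7% lower there, and the median was 0.019. Mesenchymal markers gave 7 higher and 3 lower of 16 (median 0.34). Log2 fold changes of this comparison also went with transcript length, with a Spearman's rho of 0.60 over 14027 genes, and with length and GC content corrected for, the counts were 11 and 2 for tight junction genes (median 0.47), 4 and 1 for desmosome genes (0.30), 4 and 1 for catenins and nectins (0.33) and 6 and 4 for mesenchymal markers (0.10). Without any 1 sgScr library, tight junction genes and mesenchymal markers had 0 called, and the desmosome and catenin lists 0 or 1 each.

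By the Pearson correlation of log2 CPM over the 9 libraries, among the 11900 genes that averaged 50 counts or more, the gene most like *CDH1* was *JAG1* (r = 0.9975), and the one most like *CDH2* was *CD24* (r = 0.9976), followed by *MGLL* (0.9852) and *C1S* (0.9773). *EPCAM* was most like *SOX2* (0.9831), *SNAI1* most like *FGB* (0.9881) and *TWIST1* most like *IFNGR2* (0.9727). *VIM*, *ZEB1* and *ZEB2* were nearest to *C14orf166* (0.9991), *MTHFD1* (0.9961) and *PTBP3* (0.9945). The 9 points share 4 groups, so that these values describe the order of group levels.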

How the data were processed

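RNA-seq was performed by the authors on polyA RNA (9 libraries), and the deposited values are raw read counts per gene. The submitters' processing notes name hg19, STAR 2.7.10b and DESeq2 1.26.0; the counting program, annotation and strand setting are not given in the sources used here. Of 26364 gene names 28 had been turned into dates. Members and gene lists were chosen with earlier results of these data known.

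Counts were tested with edgeR 4.0.16 in R 4.3.3 (filterByExpr, TMM, quasi-likelihood test, two-sided, Benjamini-Hochberg adjustment over all genes tested), each comparison on its own libraries, and called at an adjusted p of 0.05. The SE is the log2 fold change divided by the root of F, and 95% intervals use the fit's degrees of freedom. CPM used TMM factors over all 9 libraries. Transcript lengths and GC content (GENCODE 44 on GRCh37) matched 23790 names, and the correction was a loess fit with a span of 0.5. Named list genes were up to 3 per direction with the largest change and a mean of at least 50 counts, in *LA* against A549 or sg*FOS* against sgScr. Outside that rule, *AXL*, *LOX* and *ENG* were named to show the range of the mesenchymal list, and *CDH8* and *CDH16* as examples of low counts. *CDH19*, *EHF*, *CLDN4*, *ACTA2* and *TNC* were given by library after their values were seen, and some genes are not reported here. Totals of 14507228 to 20456341 counts set the precision. The scripts were tested on simulated data. Alternatives were DESeq2 1.42.0 as a test and its size factors, library size alone, upper quartile, no filter, a mean of 50 counts, 1 fit of all libraries, the replicate number as a block, length and GC correction, leaving out each replicate and the study's threshold.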

Additional observations from a re-analysis of the deposited data

How the results depend on the processing

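Over 487 fold changes of members refitted under the alternatives, 409 kept their direction and their side of the threshold, 56 lost the call, 13 gained one and 9 changed sign. Of those that changed sign, *SNAI1* in *LA* against A549 ranged from -0.34 to 1.96 with a replicate left out, the lowest without *LA* replicate 1, and *SNAI1* in sgScr against *LA* from -0.46 to 1.80, the lowest without *LA* replicate 2. *VIM* in sgScr against *LA* was -0.020 with library size alone, -0.044 with length and GC correction and -0.25 to 0.39 with a replicate left out, the lowest without *LA* replicate 2. *EPCAM* in sg*FOS* against sgScr was -0.050 without sgScr replicate 3 and -0.058 without sg*FOS* replicate 2, in a range up to 0.18, and *TWIST1* in sgScr against A549 was 0.24 with length and GC correction. The cause was not tested.

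Counts of members called moved as follows. In *LA* against A549 the 1 lower became 0 with library size alone or length and GC correction, 2 with all libraries in 1 fit or the study's threshold (an unadjusted p of 0.05 and a log2 fold of 0.5), and 0 to 1 with a replicate left out, while the 3 higher became 2 to 4. In sg*FOS* against sgScr the 1 higher became 0 with all libraries and 2 with length and GC correction, and the 1 lower became 0 with all libraries, DESeq2 or the study's threshold; each was 0 to 1 with a replicate left out. The 12 higher mesenchymal markers became 0 with all libraries and 9 to 11 with a replicate left out. Counts of higher members in sgScr include *ESRP1*, which entered only through sgScr and supports nothing. In sgScr against *LA* the 2 higher became 1 with a mean of 50 counts and 0 to 5 with a replicate left out, and the 3 lower 1 to 5. In sgScr against A549 the 5 higher became 0 to 6 and the 2 lower 0 to 3. There, all-gene calls went from 2872 higher and 3137 lower to 3 and 0 without sgScr replicate 2 or 3, and 117 and 13 without replicate 1. Where a lone *LA* or A549 library remained, it was assumed to vary like sgScr, and 5104 and 6059 genes were called higher.

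The replicate numbers were not taken as pairs. Deviations of same-numbered libraries correlated at -0.269 to 0.0745, which cannot decide whether libraries were made in pairs. With the replicate block the calls of *LA* against A549 were 791 higher and 728 lower over all genes, the 3 lower members of sgScr against *LA* became 1, and *EPCAM* in sg*FOS* against sgScr was -0.049. With the numbers crossed, added after seeing the data, 1977 were higher and 1901 lower.

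All-gene calls of *LA* against A549 were 1380 higher and 1434 lower, 3552 and 3247 with all libraries and 790 and 811 with length and GC correction. Library size alone moved the median of all genes there from 0.044 to 0.33 and the share of calls that were higher from 49.0% to 70.1%, and in sgScr against A549 from 47.8% to 56.9%. At 0 to 7 counts *SNAI2* was beyond what this depth can compare.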
